A study of Mus musculus with 6 samples.

Results

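This report follows 9 genes for scavenger receptors and related surface proteins of macrophages, Marco, Msr1, Colec12, Cd36, Scarb1, Cd14, Cd163, Cd5l and Vsig4, in sequenced RNA of mouse bone marrow-derived macrophages. They were chosen by symbol, and all 9 are among the 55023 genes listed. These macrophages are differentiated from bone marrow in a dish, and were kept for 24 h with LCL161 plus LTα1β2, with LTα1β2 alone or with vehicle, in 2 libraries per group. LTα1β2, a membrane-type lymphotoxin, is the ligand of the lymphotoxin beta receptor. LCL161 mimics Smac and so antagonises the cIAP proteins, ubiquitin ligases that restrain the alternative NF-kB pathway. The design has no group with LCL161 by itself, so its effect is seen only on top of LTα1β2. The labels name neither strain, genotype, age nor doses, and do not say whether the libraries of a group come from separate animals or cultures, and the p-values therefore reflect no more than how far these libraries differ, possibly for technical reasons.

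Scavenger receptors bind modified lipoproteins, bacterial surfaces, dying cells and other debris, and macrophages take up what they bind. Class A receptors (Msr1, Marco, Colec12) carry a collagen-like stalk and bind polyanionic ligands, while class B receptors (Cd36, Scarb1) span the membrane at both ends and handle fatty acids and lipoproteins. Cd163 and the secreted protein Cd5l are built of scavenger receptor cysteine-rich domains, Vsig4 binds complement C3 fragments, and Cd14 hands bacterial lipopolysaccharide to the Tlr4 receptor complex. Cd163, Cd5l and Vsig4 are known from resident macrophages of tissues such as liver and spleen.

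Total counts were 14718368 and 14991252 with LCL161 plus LTα1β2, 15958418 and 19049613 with LTα1β2, and 18860062 and 16902717 with vehicle. Levels are given as CPM, counts scaled by library size with TMM factors, which correct for library composition. The most abundant of the macrophage markers was Lyz2, which encodes lysozyme, at 24510 and 25980 CPM with LCL161 plus LTα1β2, 24910 and 24410 CPM with LTα1β2, and 22250 and 27940 CPM with vehicle. The 8 macrophage markers summed to 31920 to 33620 CPM with LCL161 plus LTα1β2, 31990 to 32650 CPM with LTα1β2 and 27320 to 33720 CPM with vehicle, a sum that is mostly Lyz2. The other markers were not level: 5 of the 8 rose and 0 fell with LTα1β2 against vehicle, 2 rose and 3 fell with LCL161 plus LTα1β2 against LTα1β2, and 3 rose and 1 fell against vehicle. Among them, singled out after their values were seen, Mertk, a receptor for dying cells, was at 599 and 607 CPM with LCL161 plus LTα1β2, 373 and 367 CPM with LTα1β2, and 158 and 195 CPM with vehicle. Adgre1, the surface marker F4/80, was at 2825 and 2790, 2074 and 2048, and 1402 and 1404 CPM in the same groups. The 3 that fell against LTα1β2 were Csf1r, Fcgr1 and Itgam. In the same order of groups Csf1r was at 2493 and 2612, 3411 and 3339, and 2192 and 2626 CPM. Fcgr1 was at 100 and 108, 196 and 194, and 33.3 and 32.2 CPM, and Itgam at 258 and 236, 431 and 430, and 298 and 326 CPM. Stromal genes were also present and moved with the groups: the 12 stromal markers summed to 667 to 713 CPM with LCL161 plus LTα1β2, 2346 to 3325 CPM with LTα1β2 and 5325 to 8057 CPM with vehicle. Col1a1 and Col1a2, the chains of type I collagen, were the most abundant in every library, while Dcn and Lum stayed below 1 CPM in every library. In bulk RNA, fewer cells of a type and less RNA per cell cannot be told apart.

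**Figure D1:**
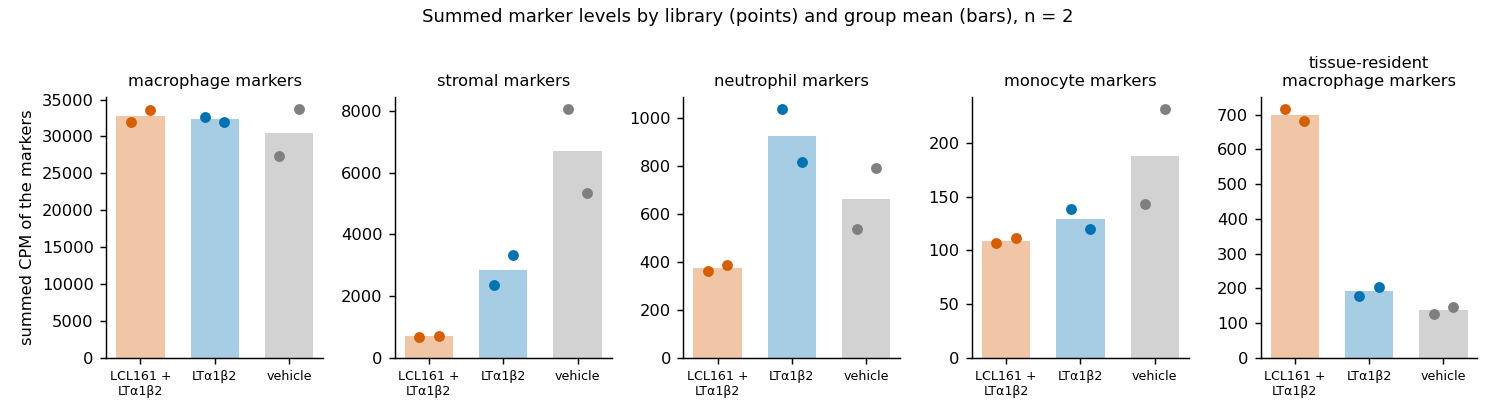
Summed CPM of 5 lists of cell type markers by library (points) with the group mean (bars), for LCL161 plus LTα1β2, LTα1β2 and vehicle. Macrophage markers lie between 27320 and 33720 CPM in all 6 libraries, a sum that is mostly Lyz2, whereas stromal markers lie between 667 and 713 CPM with LCL161 plus LTα1β2 and between 5325 and 8057 CPM with vehicle.

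Marco and Msr1 were higher with LCL161 plus LTα1β2 than with LTα1β2, while Cd5l, Vsig4, Cd163, Colec12 and Scarb1 were lower. Cd14 was lower with LTα1β2 than with vehicle, and higher with LCL161 plus LTα1β2 than with LTα1β2 alone. Cd36, the most abundant of the 9 by CPM in every group, did not pass the test in any of the 3 comparisons. A gene is said to have risen or fallen where edgeR's quasi-likelihood test gave a Benjamini-Hochberg adjusted p under 0.05 over the 18812 genes tested, which include all 9. Changes are on the log2 scale, and their standard error (SE) was approximated from the F statistic. Of the 9 genes, 1 rose and 3 fell with LTα1β2 against vehicle, 3 rose and 5 fell with LCL161 plus LTα1β2 against LTα1β2, and 2 rose and 5 fell with LCL161 plus LTα1β2 against vehicle. With total counts as library sizes these were 0 and 5, 3 and 6, and 2 and 6. Of all genes tested, 23.4%, 25.7% and 39.5% were called in either direction in the same order: 12.8% rose and 10.6% fell in the first of these comparisons, 10.6% rose and 15.1% fell in the second, and 18.4% rose and 21.1% fell in the third. Risen genes were 54.8%, 41.2% and 46.6% of these calls, and 33.0%, 28.0% and 24.6% with total counts as library sizes. The median log2 change of the 9 was -0.55 in the first, -1.23 in the second and -1.19 in the third, beside -0.039, 0.0045 and 0.047 over all genes. The 3 comparisons share libraries pairwise and are not independent.

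**Figure D2:**
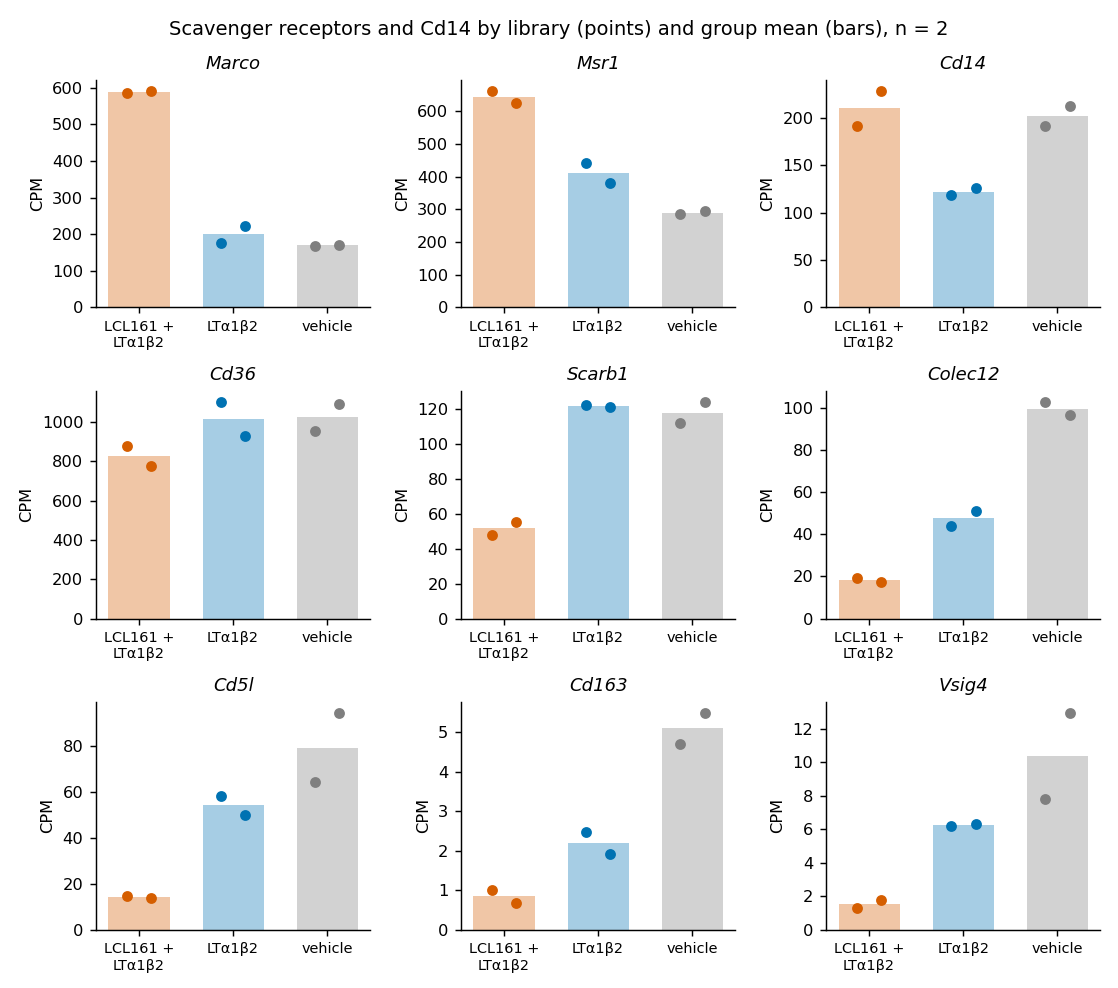
CPM of each of the 9 genes in each library (points) with the group mean (bars), for LCL161 plus LTα1β2, LTα1β2 and vehicle, each panel on its own linear axis from 0. Marco stands at 584 and 592 CPM with LCL161 plus LTα1β2 and at or below 223 CPM in the other libraries, whereas Cd5l, Cd163 and Vsig4 are lowest with LCL161 plus LTα1β2.

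Sequences around the transcription starts of Marco, which rose, and of Cd5l, Vsig4 and Cd163, which fell, are shown to set the gene that rose most of the 9 against vehicle beside the 3 that fell most. Each runs from 250 bases before to 50 bases after the start on the gene's own strand, from RefSeq on GRCm38.p6, at chr1:120504975-120505274 on the minus strand for Marco, chr3:87357631-87357930 on the plus strand for Cd5l, chrX:96293389-96293688 on the minus strand for Vsig4 and chr6:124304401-124304700 on the plus strand for Cd163. Capitals mark GAGGAA, the core bound by the myeloid factor PU.1, or its reverse complement.
Marco: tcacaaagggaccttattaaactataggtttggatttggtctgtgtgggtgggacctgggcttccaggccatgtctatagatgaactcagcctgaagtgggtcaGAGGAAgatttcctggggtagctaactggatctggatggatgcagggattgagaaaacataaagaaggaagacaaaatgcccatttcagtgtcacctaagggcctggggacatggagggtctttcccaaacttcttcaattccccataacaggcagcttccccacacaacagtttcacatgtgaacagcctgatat
Cd5l: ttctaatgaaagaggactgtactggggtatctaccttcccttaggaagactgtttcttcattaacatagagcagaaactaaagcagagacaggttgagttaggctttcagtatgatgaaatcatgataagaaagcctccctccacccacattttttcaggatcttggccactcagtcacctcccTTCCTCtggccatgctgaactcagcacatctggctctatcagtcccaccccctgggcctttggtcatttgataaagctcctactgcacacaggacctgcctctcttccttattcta
Vsig4: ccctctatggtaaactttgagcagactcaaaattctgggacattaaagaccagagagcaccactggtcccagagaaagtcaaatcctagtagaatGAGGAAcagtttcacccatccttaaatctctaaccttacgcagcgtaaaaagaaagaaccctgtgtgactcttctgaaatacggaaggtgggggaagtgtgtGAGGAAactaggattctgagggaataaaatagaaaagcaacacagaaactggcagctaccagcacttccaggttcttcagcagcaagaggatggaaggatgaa
Cd163: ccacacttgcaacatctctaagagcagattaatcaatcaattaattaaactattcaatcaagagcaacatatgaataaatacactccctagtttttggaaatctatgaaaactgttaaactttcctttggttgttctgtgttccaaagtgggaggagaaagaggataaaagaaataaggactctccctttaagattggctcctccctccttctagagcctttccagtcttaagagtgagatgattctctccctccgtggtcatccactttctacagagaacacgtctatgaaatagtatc
The core occurs 1 time in Marco, 1 time in Cd5l and 2 times in Vsig4 and is not in the Cd163 window, and 28.3% of the 32851 promoters of the same length hold it on either strand. None of these 4 windows holds TGANTCA, a form of the AP-1 motif (7.81% of all promoters) or TTCNNNGAA for STAT factors (8.3%), with both strands searched and overlapping matches kept. No match says only that these letters are not in the window. Sequences of Msr1 and Scarb1 were not used here.

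Among the class A receptors, Marco rose most. It encodes a trimeric receptor for bacteria and inhaled particles and lies on chromosome 1 at 120474538 to 120505024 (GRCm38, minus strand). Marco had 584 and 592 CPM with LCL161 plus LTα1β2, 177 and 223 CPM with LTα1β2, and 168 and 171 CPM with vehicle. Both LCL161 plus LTα1β2 libraries lay far above the other 4, and the LTα1β2 libraries lay above those of vehicle by a margin that did not pass the test. The log2 change was 1.56 (SE 0.12, edgeR adjusted p = 0.000177) for LCL161 plus LTα1β2 against LTα1β2 and 1.80 (SE 0.12, adjusted p = 2.25e-05) against vehicle. For LTα1β2 against vehicle it was 0.24 (SE 0.12, adjusted p = 0.202), with a 95% interval from -0.041 to 0.52. Without LTα1β2 replicate 1 that change was 0.47 and passed (adjusted p = 0.049), and over the 14 alternatives its adjusted p ran from 0.049 to 0.827.

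Msr1, the macrophage scavenger receptor of acetylated lipoproteins, lies on chromosome 8 at 39581685 to 39642673 (minus strand) and rose at each step. It had 663 and 624 CPM with LCL161 plus LTα1β2, 443 and 382 CPM with LTα1β2, and 286 and 295 CPM with vehicle, so that no 2 groups overlapped. The log2 change was 0.65 (SE 0.11, edgeR adjusted p = 0.00408) for LCL161 plus LTα1β2 against LTα1β2 and 1.15 (SE 0.11, adjusted p = 0.000104) against vehicle. For LTα1β2 against vehicle it was 0.51 (SE 0.11, adjusted p = 0.0123). That last call was lost without vehicle replicate 1 (adjusted p = 0.0654), without LTα1β2 replicate 1 (0.0544) and with total counts as library sizes (0.0651, log2 change 0.32), and over 14 alternatives the adjusted p ran from 2.32e-05 to 0.0654.

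Colec12, a class A receptor with a C-type lectin domain that is also made by stromal and endothelial cells, went the other way. It lies on chromosome 18 at 9707595 to 9882644 (plus strand), and its counts were not whole in 4 of the 6 libraries. Colec12 had 19.1 and 17.2 CPM with LCL161 plus LTα1β2, 44.2 and 51.1 CPM with LTα1β2, and 103 and 96.5 CPM with vehicle. The groups did not overlap, and the fall at each step was several times its SE. The log2 change was -1.07 (SE 0.12, edgeR adjusted p = 0.000687) for LTα1β2 against vehicle, -1.39 (SE 0.12, adjusted p = 0.000269) for LCL161 plus LTα1β2 against LTα1β2 and -2.46 (SE 0.12, adjusted p = 5.5e-06) against vehicle. Col1a1, the stromal marker with the highest mean CPM over the 6 libraries, fell beside it, with log2 changes of -1.50 (SE 0.25), -2.21 (SE 0.26) and -3.71 (SE 0.28) in the same 3 comparisons (edgeR adjusted p = 0.0053, 0.000903 and 3.36e-05). Of 11 stromal markers tested, 8, 9 and 9 fell in the same order and none rose. Their part in the change of Colec12 was not tested.

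The class B receptors differed from each other. Cd36, a receptor for oxidised lipoproteins and long-chain fatty acids, lies on chromosome 5 at 17781690 to 17888801 (minus strand). Cd36 had 876 and 778 CPM with LCL161 plus LTα1β2, 1102 and 926 CPM with LTα1β2, and 951 and 1093 CPM with vehicle. Both LCL161 plus LTα1β2 libraries lay below the other 4, which overlapped. The log2 change was -0.29 (SE 0.13, edgeR adjusted p = 0.133, 95% interval -0.59 to 0.009) for LCL161 plus LTα1β2 against LTα1β2 and -0.30 (SE 0.13, adjusted p = 0.0985, interval -0.60 to -0.0029) against vehicle. For LTα1β2 against vehicle it was -0.012 (SE 0.13, adjusted p = 0.961, interval -0.31 to 0.29). The change against vehicle passed without vehicle replicate 1 (-0.45, adjusted p = 0.0476), with total counts as library sizes (-0.61, 0.0059) and with no filter beyond 1 read (-0.36, 0.0105), in a range up to 0.227 over 14 alternatives. The change against LTα1β2 passed with total counts (-0.41, adjusted p = 0.0484) and with no such filter (-0.43, 0.00189), in a range up to 0.312.

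Scarb1, the receptor through which cells exchange cholesterol with high-density lipoprotein, lies on the same chromosome at 125277087 to 125341094 (minus strand). It had 47.9 and 55.5 CPM with LCL161 plus LTα1β2, 122 and 121 CPM with LTα1β2, and 112 and 124 CPM with vehicle. Only the LCL161 plus LTα1β2 libraries stood apart, and LTα1β2 and vehicle overlapped. Scarb1 fell, with a log2 change of -1.23 (SE 0.11, edgeR adjusted p = 0.000303) with LCL161 plus LTα1β2 against LTα1β2 and of -1.19 (SE 0.11, adjusted p = 0.000114) against vehicle. The change with LTα1β2 against vehicle was 0.044 (SE 0.11, adjusted p = 0.818, 95% interval -0.21 to 0.30), and with total counts as library sizes its sign turned (-0.14).

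Cd14, the lipopolysaccharide co-receptor, lies on chromosome 18 at 36725067 to 36726798 (minus strand). Its level was 192 and 229 CPM with LCL161 plus LTα1β2, 119 and 126 CPM with LTα1β2, and 191 and 213 CPM with vehicle. The LTα1β2 libraries were the lowest, and those of LCL161 plus LTα1β2 and of vehicle overlapped. Cd14 fell, with a log2 change of -0.73 (SE 0.12, edgeR adjusted p = 0.00433) for LTα1β2 against vehicle, and rose by 0.79 (SE 0.12, adjusted p = 0.00263) with LCL161 plus LTα1β2 against LTα1β2. Against vehicle the change with LCL161 plus LTα1β2 was 0.061 (SE 0.12, adjusted p = 0.699, 95% interval -0.21 to 0.33). The fall with LTα1β2 did not pass without LTα1β2 replicate 1 (-0.61, adjusted p = 0.0558), and over 14 alternatives its adjusted p ran from 1.42e-06 to 0.0558.

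The 3 genes known from resident tissue macrophages were lowest with LCL161 plus LTα1β2. Cd5l, a secreted protein that binds lipids and microbial surfaces, lies on chromosome 3 at 87357881 to 87371073 (plus strand). Cd5l had 14.7 and 13.7 CPM with LCL161 plus LTα1β2, 58.2 and 50 CPM with LTα1β2, and 64.0 and 94.2 CPM with vehicle. The vehicle libraries lay further from each other than the lower of them lay from LTα1β2. Cd5l fell, with a log2 change of -1.93 (SE 0.20, edgeR adjusted p = 0.000491) with LCL161 plus LTα1β2 against LTα1β2 and of -2.47 (SE 0.20, adjusted p = 5.09e-05) against vehicle. The change of -0.55 (SE 0.18) with LTα1β2 against vehicle did not pass (adjusted p = 0.0674), but passed without vehicle replicate 1 (-0.81, adjusted p = 0.0187), with total counts as library sizes (-0.73, 0.0165), in DESeq2 (0.0423) and with no filter beyond 1 read (0.0162). Over 14 alternatives that adjusted p ran from 0.0162 to 0.39, and without vehicle replicate 2 the change was -0.25.

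Vsig4, the complement receptor also called CRIg, lies on the X chromosome at 96247203 to 96293438 (minus strand). It was a low-count gene, with 18 and 23 reads with LCL161 plus LTα1β2, 97 and 118 reads with LTα1β2, and 169 and 240 reads with vehicle. This was 1.31 and 1.75 CPM with LCL161 plus LTα1β2, 6.17 and 6.30 CPM with LTα1β2, and 7.80 and 12.9 CPM with vehicle. The groups did not overlap, with the widest spread in vehicle. Vsig4 fell, with a log2 change of -2.02 (SE 0.32, edgeR adjusted p = 0.00371) with LCL161 plus LTα1β2 against LTα1β2 and of -2.75 (SE 0.31, adjusted p = 0.000314) against vehicle. With LTα1β2 against vehicle the change of -0.73 (SE 0.25, adjusted p = 0.0784) did not pass, and it was -1.06 (adjusted p = 0.0249) without vehicle replicate 1, -0.91 (0.0244) with total counts as library sizes, -0.65 (0.0289) with no filter beyond 1 read, and -0.33 (adjusted p = 0.437, the highest of 14 alternatives) without vehicle replicate 2.

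Cd163, which takes up haemoglobin bound to haptoglobin, lies on chromosome 6 at 124304656 to 124330527 (plus strand) and was the least abundant of the 9. It had 14 and 9 reads with LCL161 plus LTα1β2, 39 and 36 reads with LTα1β2, and 102 reads in each vehicle library. In CPM this was 1.02 and 0.687 with LCL161 plus LTα1β2, 2.48 and 1.92 with LTα1β2, and 4.71 and 5.50 with vehicle, without overlap of any 2 groups. Cd163 fell, with a log2 change of -1.22 (SE 0.25, edgeR adjusted p = 0.0126) with LTα1β2 against vehicle, of -1.35 (SE 0.33, adjusted p = 0.0219) with LCL161 plus LTα1β2 against LTα1β2 and of -2.56 (SE 0.30, adjusted p = 0.000385) against vehicle. The fall with LTα1β2 was lost without vehicle replicate 2 (adjusted p = 0.0771) and without LTα1β2 replicate 2 (0.0793), in a range from 0.00156 to 0.0793. The fall against LTα1β2 was lost without LTα1β2 replicate 1 (0.065), without LCL161 plus LTα1β2 replicate 2 (0.0668), in limma voom (0.0544) and with only these 2 groups in the fit (0.0609), in a range from 0.00111 to 0.0668.

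**Figure D3:**
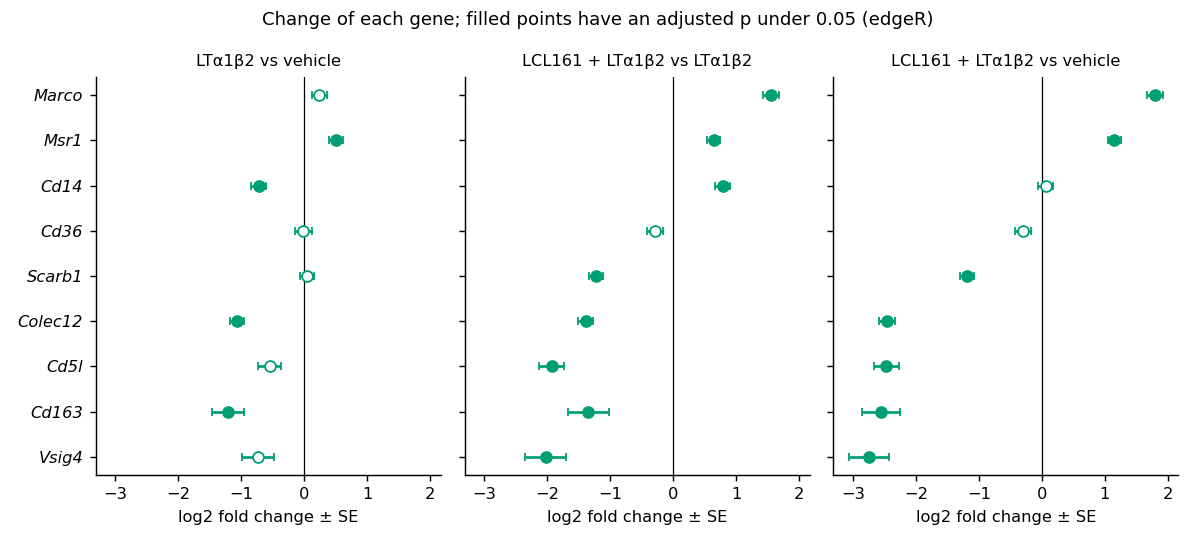
Log2 fold change of each of the 9 genes (points) with its SE (bars) in the 3 comparisons, filled where the edgeR adjusted p is under 0.05. Marco is highest at 1.56 and 1.80 in the comparisons of LCL161 plus LTα1β2 with LTα1β2 and with vehicle, and the changes of Colec12, Cd5l, Cd163 and Vsig4 against vehicle lie between -2.75 and -2.46.

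Divided by exon length, the order of the 9 differed between groups. In CPM per kb of the merged exons of GENCODE M21, Marco came before Cd36 with LCL161 plus LTα1β2, at 305 ± 2.9 and 230 ± 19.3 (SD, n = 2), and their libraries did not overlap. With LTα1β2 Cd36 came before Marco, at 282 ± 34.7 and 104 ± 16.9, and with vehicle Cd36 stood at 285 ± 27.9, before Cd14 at 117 ± 8.9 and Marco at 88.0 ± 1.3. Cd14 and Msr1 followed with LCL161 plus LTα1β2 at 121 ± 15.2 and 101 ± 4.4, and with LTα1β2 at 70.5 ± 2.9 and 65 ± 6.8, where their libraries overlapped. Msr1 with vehicle, at 45.8 ± 1.0, overlapped Cd5l at 38.9 ± 10.5. Every other pair of neighbours in these orders was separated in both libraries, and Cd163 was last in each group.

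In length-scaled terms Marco made up 39.0% and 39.9% of the summed level of the 9 genes with LCL161 plus LTα1β2, against 15.6% and 20.8% with LTα1β2 and 15.3% and 13.8% with vehicle. Cd36 made up 31.3% and 28.1% with LCL161 plus LTα1β2, 52.0% and 46.4% with LTα1β2, and 46.5% and 47.3% with vehicle. The ratio of Marco to Cd36 per exon length, which no library scaling can move, was 1.24 and 1.42 with LCL161 plus LTα1β2, 0.300 and 0.449 with LTα1β2, and 0.329 and 0.292 with vehicle. That of Marco to Msr1 was 2.90 and 3.12 with LCL161 plus LTα1β2, 1.32 and 1.92 with LTα1β2, and 1.93 and 1.91 with vehicle. The ratio of Cd36 to Scarb1 was 43.3 and 33.2 with LCL161 plus LTα1β2, 21.4 and 18.1 with LTα1β2, and 20.2 and 20.9 with vehicle. In these 3 ratios the LCL161 plus LTα1β2 libraries were above the other 4, while LTα1β2 and vehicle overlapped. The ratio of Msr1 to Cd36 differed from them, as no 2 groups overlapped. It was 0.429 and 0.454 with LCL161 plus LTα1β2, 0.227 and 0.234 with LTα1β2, and 0.170 and 0.153 with vehicle.

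**Figure D4:**
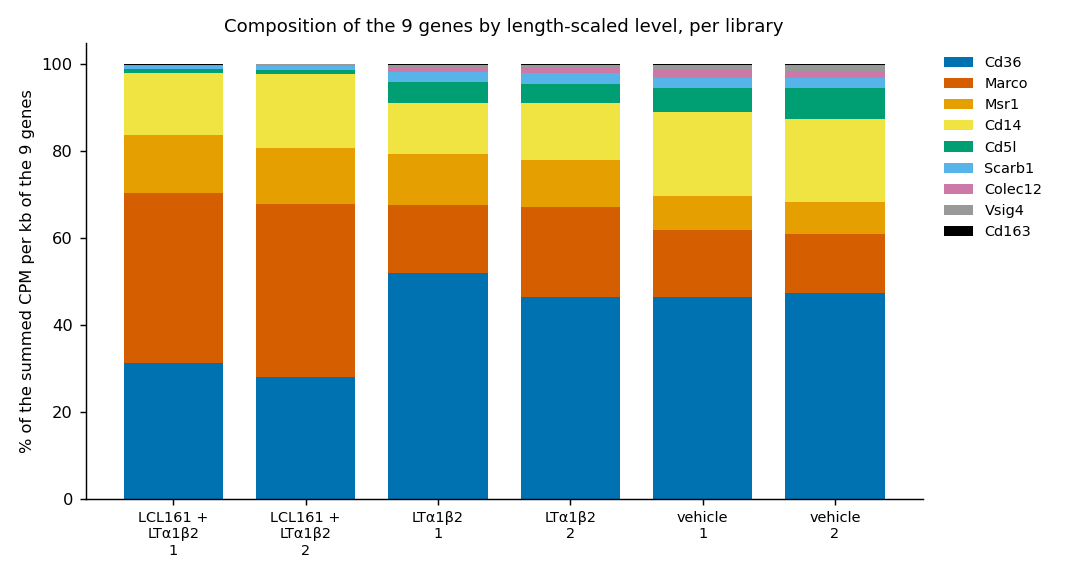
Share of each of the 9 genes in their summed CPM per kb of exon, in percent, for each of the 6 libraries. Marco takes 39.0% and 39.9% with LCL161 plus LTα1β2 and between 13.8% and 20.8% in the other 4 libraries, and Cd36 is the largest share in those 4.

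Other scavenger receptors moved in both directions. Of 19 tested, 6 rose and 3 fell with LTα1β2 against vehicle (6 and 6 with total counts as library sizes), 7 rose and 5 fell with LCL161 plus LTα1β2 against LTα1β2, and 6 rose and 8 fell against vehicle. The mannose receptor Mrc1 fell to 5.19 ± 0.87 CPM with LCL161 plus LTα1β2 and 29.4 ± 1.7 CPM with LTα1β2, against 119 ± 14.3 CPM with vehicle (SD, n = 2), a log2 change of -2.49 (SE 0.16, edgeR adjusted p = 8.71e-05) between the first 2 groups and -2.02 (SE 0.14, adjusted p = 6.56e-05) between the last 2. Olr1, the lectin-like receptor for oxidised lipoprotein, rose by 3.98 (SE 0.30, adjusted p = 0.000147) on the log2 scale, to 13.4 ± 0.16 CPM with LCL161 plus LTα1β2, against 0.846 ± 0.064 CPM with LTα1β2. Cxcl16, a membrane chemokine that binds oxidised lipids, was at 1338 ± 126 CPM with LCL161 plus LTα1β2, against 273 ± 29.5 CPM with vehicle (log2 change 2.30, SE 0.12, edgeR adjusted p = 6.36e-06). Lrp1, the receptor that takes up haem bound to haemopexin among many ligands, fell by 1.23 (SE 0.13, adjusted p = 0.000553) with LCL161 plus LTα1β2 against LTα1β2. Scara3 and Scarf2 fell in the same comparison, with log2 changes of -2.22 (SE 0.28) and -3.13 (SE 0.34) and with edgeR adjusted p of 0.00114 and 0.000644. Stab1, a receptor of resident and alternatively activated macrophages, also fell there (-0.58, SE 0.11, adjusted p = 0.00807), a call lost without LTα1β2 replicate 2 (adjusted p = 0.0544, the highest of 14 alternatives from 2.73e-08).

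Genes that work beside Cd14 in sensing bacterial products were mostly higher or not called. Of 15 tested, 7 rose and 0 fell with LTα1β2 against vehicle (6 and 0 with total counts as library sizes), 4 rose and 2 fell with LCL161 plus LTα1β2 against LTα1β2 (4 and 3), and 8 rose and 0 fell against vehicle (7 and 3 with total counts). Tlr2, a receptor for bacterial lipoproteins, was at 373 ± 2.9 CPM with LCL161 plus LTα1β2, against 139 ± 13.9 CPM with LTα1β2 (log2 change 1.43, SE 0.10, edgeR adjusted p = 0.000135). Its partner Tlr1 was at 114 ± 5.6 CPM with LCL161 plus LTα1β2, against 40.0 ± 2.3 CPM with LTα1β2 (1.52, SE 0.10, adjusted p = 0.00011). In that comparison Tlr6, the alternative partner, rose too (log2 change 0.90, SE 0.11, edgeR adjusted p = 0.00128) as did the ubiquitin ligase gene Traf6 (0.83, SE 0.10, adjusted p = 0.00098). Tlr4 and Ly86 fell in that comparison, with log2 changes of -0.46 (SE 0.10, adjusted p = 0.0125) and -1.47 (SE 0.10, adjusted p = 0.000101). Tlr4 had risen with LTα1β2 against vehicle (0.94, SE 0.10, edgeR adjusted p = 0.000534), and was at 96.1 ± 3.1 CPM with LCL161 plus LTα1β2, 132 ± 8.5 CPM with LTα1β2 and 68.7 ± 1.6 CPM with vehicle. Its level with LCL161 plus LTα1β2 was thus also above vehicle (0.49, SE 0.10, adjusted p = 0.00575), a call lost without vehicle replicate 2 (0.41, adjusted p = 0.0628) and with total counts as library sizes (0.17, adjusted p = 0.219, the highest of 14 alternatives from 0.000789). Ly86 and its partner Cd180, a Tlr4-like protein of macrophages and B cells, had risen with LTα1β2 against vehicle, by 1.5 (SE 0.10) and 2.28 (SE 0.12), with edgeR adjusted p of 5.05e-05 and 1.9e-05. Exons of Cd180 overlap Mast4, those of Stab1 Nt5dc2, those of Cxcl16 Zmynd15 and those of Acsl1 a predicted gene, each on the other strand. Likewise, exons of Csf1r overlap Hmgxb3, and those of Vcam1 and of F13a1 each a predicted gene, on the other strand. All these counts are uncertain if strand was not used.

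Genes of lipid uptake, storage and efflux, the context of Cd36 and Scarb1, were mixed. Of 19 tested, 5 rose and 2 fell with LTα1β2 against vehicle, 3 rose and 4 fell with LCL161 plus LTα1β2 against LTα1β2, and 8 rose and 4 fell against vehicle (7 and 6 with total counts). Pparg, a nuclear receptor known to drive Cd36 and Fabp4 in macrophages, was at 3.50 ± 0.44 CPM with LCL161 plus LTα1β2, against 19.9 ± 1.9 CPM with LTα1β2 (log2 change -2.50, SE 0.18, edgeR adjusted p = 0.000138). Nr1h3, the sterol-sensing receptor LXRα, which is known to activate Cd5l in mouse macrophages, went against Cd5l, at 167 ± 35.3 CPM with LCL161 plus LTα1β2 and 44.5 ± 3.5 CPM with LTα1β2 (1.91, SE 0.17, adjusted p = 0.000259). Exons of Nr1h3, and those of Itgam, share same-strand sequence with a predicted gene, which makes these counts uncertain. Abca1, a cholesterol exporter, rose in that comparison (0.90, SE 0.11, edgeR adjusted p = 0.00085). Abcg1, of the same list, fell there (-0.32, SE 0.10, adjusted p = 0.0495), a call that 3 of 14 alternatives kept. With LTα1β2 against vehicle Abcg1 had risen (1.43, SE 0.10, edgeR adjusted p = 7.88e-05). Acsl1, which activates long-chain fatty acids, reached 2200 ± 43.7 CPM with LCL161 plus LTα1β2, against 179 ± 20.2 CPM with LTα1β2 (3.62, SE 0.12, adjusted p = 6.19e-06). Fabp4, a fatty acid carrier, was lower with LTα1β2 (13.2 ± 1.5 CPM) than with vehicle (26.9 ± 3.6 CPM, log2 change -1.03, SE 0.15, edgeR adjusted p = 0.00274). Pparg also fell in that step (-0.56, SE 0.15, edgeR adjusted p = 0.0329), a call that 10 of 14 alternatives kept. With LCL161 plus LTα1β2 Fabp4 was at 15.8 ± 0.56 CPM and was not called against LTα1β2. The part of Pparg in the levels of Cd36 and Fabp4, and that of Nr1h3 in the level of Cd5l, was not tested.

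Genes of haemoglobin and haem handling, the context of Cd163, rose in part while Cd163 fell. Of 13 tested, 2 rose and 2 fell with LTα1β2 against vehicle (2 and 4 with total counts as library sizes), 4 rose and 1 fell with LCL161 plus LTα1β2 against LTα1β2 (3 and 3), and 5 rose and 2 fell against vehicle (4 and 3). Hmox1, which breaks haem down, was at 2820 ± 89.7 CPM with LCL161 plus LTα1β2, against 1083 ± 9.3 CPM with LTα1β2 (log2 change 1.38, SE 0.16, edgeR adjusted p = 0.000817). The ferritin heavy chain gene Fth1 rose by 1.0 (SE 0.16, adjusted p = 0.00387) in that comparison and the haem exporter gene Abcg2 fell by 1.06 (SE 0.12, adjusted p = 0.000707). Slc40a1, the iron exporter ferroportin, was at 229 ± 4.8 CPM with LCL161 plus LTα1β2, against 654 ± 161 CPM with vehicle (-1.51, SE 0.18, edgeR adjusted p = 0.000363). It had already fallen with LTα1β2 against vehicle, to 309 ± 43.0 CPM (-1.08, SE 0.17, adjusted p = 0.00439). With LCL161 plus LTα1β2 against LTα1β2 it was not called.

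Complement C3, the source of the ligands of Vsig4, rose while Vsig4 fell. C3 stood at 3572 ± 2.1 CPM with LCL161 plus LTα1β2, against 598 ± 65.1 CPM with LTα1β2 (log2 change 2.58, SE 0.12, edgeR adjusted p = 1.81e-05), and at that LTα1β2 level against 70.7 ± 2.8 CPM with vehicle (3.08, SE 0.12, adjusted p = 4.04e-06). Of 11 genes of C3 and its receptors, 5 rose and 1 fell with LTα1β2 against vehicle, 4 rose and 4 fell with LCL161 plus LTα1β2 against LTα1β2, and 5 rose and 5 fell against vehicle. Among the other C3 fragment receptors, Itgax, a chain of complement receptor 4, rose by 1.64 (SE 0.15, adjusted p = 0.000327) with LCL161 plus LTα1β2 against LTα1β2, whereas Itgam, a chain of complement receptor 3, fell by 0.80 (SE 0.10, adjusted p = 0.00106). Itgam was at 247 ± 15.5 CPM with LCL161 plus LTα1β2, 430.4 ± 0.67 CPM with LTα1β2 and 312 ± 19.4 CPM with vehicle. C3ar1, a receptor for the C3a fragment, fell by 1.03 (SE 0.11, adjusted p = 0.000585).

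Transcription factors of macrophage identity also moved in both directions. Of 11 tested, 5 rose and 3 fell with LTα1β2 against vehicle, 3 rose and 4 fell with LCL161 plus LTα1β2 against LTα1β2 (3 and 6 with total counts), and 6 rose and 4 fell against vehicle. Id3, a factor known from Kupffer cells of the liver, where Cd5l and Vsig4 are made, was at 60.0 ± 7.1 CPM with LCL161 plus LTα1β2, against 292 ± 15.6 CPM with LTα1β2 (log2 change -2.28, SE 0.12, edgeR adjusted p = 3.7e-05). Spic, a factor of red pulp macrophages of the spleen, moved in opposite directions in the 2 steps. It was higher, at 40.6 ± 2.4 CPM with LCL161 plus LTα1β2, against 4.99 ± 0.41 CPM with LTα1β2 (3.03, SE 0.23, edgeR adjusted p = 0.00016), and lower with LTα1β2 than with vehicle, at 15.2 ± 4.9 CPM with vehicle (-1.60, SE 0.23, adjusted p = 0.00267). Of the 7 markers of resident tissue macrophages, Clec4f, Timd4 and Lyve1 stayed below 1 CPM in every library, and the summed level of all 7 was 683 to 716 CPM with LCL161 plus LTα1β2, 177 to 204 CPM with LTα1β2 and 127 to 146 CPM with vehicle. Vcam1 made up most of it with LCL161 plus LTα1β2, at 592 and 557 CPM, and was at 73.6 and 87.0 CPM with LTα1β2 and 45.2 and 62.2 CPM with vehicle, near Siglec1. Neither their part nor that of the stromal markers in the changes of Cd5l, Cd163 and Vsig4 was tested.

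Markers of other cells that such cultures can hold were at low to moderate levels. The 8 neutrophil markers, with S100a8, S100a9 and Ngp the most abundant, summed to 362 to 386 CPM with LCL161 plus LTα1β2, 814 to 1036 CPM with LTα1β2 and 536 to 789 CPM with vehicle. The 5 monocyte markers summed to 107 to 111 CPM with LCL161 plus LTα1β2, 120 to 139 CPM with LTα1β2 and 143 to 232 CPM with vehicle. Within this sum F13a1 was at 2.61 and 3.36 CPM with LCL161 plus LTα1β2, 9.16 and 7.79 CPM with LTα1β2, and 107 and 194 CPM with vehicle, whereas Ly6c2 was at 81.9 and 84.1 CPM with LCL161 plus LTα1β2, 72.4 and 55.5 CPM with LTα1β2, and 7.99 and 9.43 CPM with vehicle. The 7 endothelial markers, with Cdh5 below 1 CPM, summed to 31.7 to 35.9 CPM with LCL161 plus LTα1β2, 23.0 to 23.3 CPM with LTα1β2 and 22.3 to 25.4 CPM with vehicle. The 6 adipocyte markers summed to 1.68 to 1.96 CPM with LCL161 plus LTα1β2, 0.427 to 1.46 CPM with LTα1β2 and 1.13 to 2.17 CPM with vehicle, with Adipoq, Plin1 and Cidec below 1 CPM and no Cfd read. The 6 erythroid markers summed to 2.25 to 2.90 CPM with LCL161 plus LTα1β2, 2.86 to 2.99 CPM with LTα1β2 and 2.95 to 3.67 CPM with vehicle. The part of these cells in the changes of the 9 genes was not tested.

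**Figure D5:**
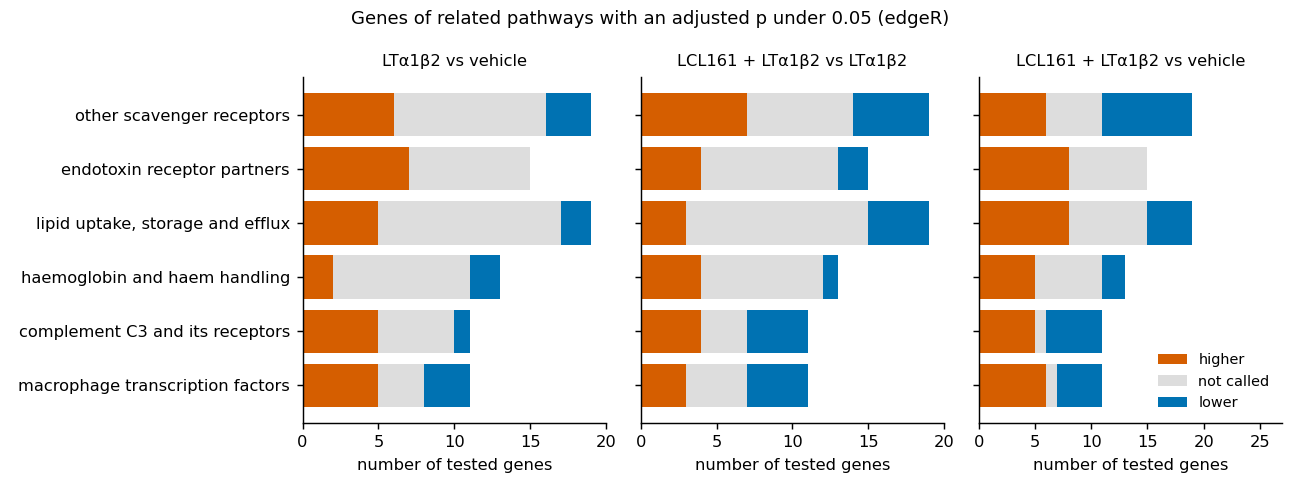
Number of tested genes that were higher, not called or lower at an edgeR adjusted p under 0.05, for 6 lists of genes related to the receptors, in the 3 comparisons. With LTα1β2 against vehicle 7 of 15 endotoxin receptor partners are higher and 0 lower, and with LCL161 plus LTα1β2 against vehicle 6 of 19 other scavenger receptors are higher and 8 lower.

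Across the 6 libraries, the genes with the nearest centred log2 CPM profile were sought among 10088 with a mean of at least 5 CPM, by Euclidean distance. The genes followed in this report were not candidates, so none could be listed beside another and their likeness to each other was not assessed. No predicted gene is among those listed. Nearest to Marco were Tnip1 (distance 0.201), Clic4 (0.278) and Fpr1 (0.298), next to a length of 1.97 of the profile of Marco itself. Nearest to Msr1 were Ptpn2 (0.0913), Nt5c3 (0.12) and Birc2 (0.125), with a length of 1.17 for Msr1. Colec12 (length 2.47) had Hmmr (0.104), Cttn (0.119) and Fermt2 (0.127) beside it, and Scarb1 (1.41) had Ckb (0.132), Rasa3 (0.192) and Atp2a3 (0.198). Cd5l (2.61) had Mmp8 (0.244), Rcbtb2 (0.296) and Sh3bp5 (0.317), and Vsig4 (2.8) had C5ar2 (0.366), Gpr39 (0.472) and Id3 (0.536). Cd163 (2.49) had Rbpms2 (0.317), Cd109 (0.344) and Wwp1 (0.351), Cd14 (0.899) had P3h1 (0.199), Mmp24 (0.263) and Abracl (0.265), and Cd36 (0.428) had Gnptg (0.0966), Rev3l (0.107) and Tnfrsf13b (0.114). These distances describe likeness over 6 libraries in 3 groups and carry no test.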

How the data were processed

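Expression was measured by RNA sequencing in 6 libraries, 2 for each of 3 groups taken from the sample titles. The authors deposited 1 table of expected counts per gene symbol, in which 66.6% of the non-zero values are whole; counts were not normalised. STAR 2.7.3a, DESeq2 1.26.0 and GRCm38 are named, per the submitters' processing notes. The counter, its annotation and its strand setting were not given in the sources used here.

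Values were rounded to whole numbers. filterByExpr (10 reads) kept 18812 of 55023 genes. A group-means model over all 6 libraries was fitted in edgeR 4.0.16 (R 4.3.3) with TMM factors of 0.874 to 1.15 and tested with glmQLFTest, two-sided, with Benjamini-Hochberg adjustment. Biological variation came to 13.6% (coefficient of variation). Residual degrees of freedom were 3 and prior ones 4.59, and 95% intervals are 2.33 SE each way. CPM use TMM-scaled library sizes, at which 3 reads equal 0.139 to 0.229 CPM. The fit was tested on simulated data. Positions and exon lengths come from GENCODE M21 by symbol; exons of the 9 genes overlap no other gene there.

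The 9 genes and all lists were chosen with earlier results of these data known. Named genes are the 9, up to 2 called genes per list and comparison with the smallest p, or all called in a direction where there were at most 5, the most abundant marker of each cell type and the 3 nearest profiles; several that this selects are given only within counts. Alternatives were relative log expression factors, total counts as library sizes, DESeq2 1.42.0, limma 3.58.1 voom, a minimum of 1 CPM in 2 libraries, no filter beyond 1 read, a block for the replicate number, a fit of only the 2 groups compared, and leaving out each library. Replicates differed by more than counting error, their chi-square being 7.74 to 14.1 per degree of freedom.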

Additional observations from a re-analysis of the deposited data

How the results depend on the processing

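Of 27 changes of the 9 genes (3 comparisons each), 15 kept their direction and their side of the threshold under all 14 alternatives. Over 378 values, 10 lost a call, 13 gained one and 9 turned in sign, and all that turned in sign belonged to changes that did not pass. For LTα1β2 against vehicle, Cd36 turned to 0.068 with no filter beyond 1 read, 0.022 with only the 2 groups compared, 0.087 without vehicle replicate 2 and 0.099 without LTα1β2 replicate 2, and Scarb1 to -0.14 with total counts and -0.037 without vehicle replicate 1. For LCL161 plus LTα1β2 against vehicle, Cd14 turned to -0.25 with total counts, -0.065 without vehicle replicate 1 and -0.14 without LCL161 plus LTα1β2 replicate 2. With each library left out in turn, Scarb1 ran from -0.037 to 0.117 and Cd14 from -0.14 to 0.167 in these comparisons. The cause was not tested. Calls among all genes ran, with a library left out, from 1930 to 4933 (4401 with all) for LTα1β2 against vehicle, from 2332 to 4604 (4832) for LCL161 plus LTα1β2 against LTα1β2 and from 4885 to 7285 (7431) against vehicle, with more than a 1.5-fold loss in the first without vehicle replicate 1 (1930) or 2 (2807) or LTα1β2 replicate 1 (2457) or 2 (2499), in the second without LTα1β2 replicate 2 (2332) and in the third without vehicle replicate 1 (4885). The number of the 9 genes called ran from 3 to 5 (4), 7 to 8 (8) and 7 to 8 (7). Leaving out a library leaves 1 group with a single library, which is assumed to vary like the others.

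Total counts as library sizes moved the median log2 change of all genes to -0.23, -0.12 and -0.26, beside -0.039, 0.0045 and 0.047 with TMM factors, in the order LTα1β2 against vehicle, LCL161 plus LTα1β2 against LTα1β2, and LCL161 plus LTα1β2 against vehicle. The share of calls that were higher was 33.0%, 28.0% and 24.6%, beside 54.8%, 41.2% and 46.6%. With the replicate block, 4144, 4629 and 7308 genes and 4, 8 and 7 of the 9 were called, and no call among the 9 changed. Nothing in the labels pairs libraries of the same number, and their deviations correlated across genes at 0.138, 0.0941 and 0.157 between groups. Ranks by CPM equalled ranks per exon length in 9 of 27 cases. For Cd163 and Vsig4, with 9 to 240 reads a library, read depth limits the precision.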
